A study of Mus musculus with 189 samples.

Results

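The genes described here are 9 genes of MHC class I antigen presentation, B2m, H2-K1, H2-D1, Tap1, Tap2, Tapbp, Psmb8, Psmb9 and Nlrc5. They were found by symbol among 46078 gene rows of a read-count table of single peritoneal cells, and all 9 were present. The table held 189 cells from 4 female C57BL/6 mice, in 2 groups defined by cell sorting. The labels named the groups mature mast cells (94 cells, integrin β7 low with high side scatter) and basophil-mast cell progenitors, BMCPs (95 cells, integrin β7 high with low side scatter). Both gates were set on live Lin- cells that stained for c-Kit and FcεRI (the high-affinity receptor for IgE), and the labels name no treatment. The labels give no age and do not say which mouse a cell came from. Each group is therefore a single pooled sample, no test between the groups was possible, and the intervals below cover counting error only. Reads were amplified without molecular identifiers. The Poisson intervals of levels and ratios thus cover the counting of reads, and not of RNA molecules or the spread between cells.

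MHC class I molecules display peptides from inside the cell to CD8 T cells and engage inhibitory receptors of natural killer cells. The proteasome cuts proteins into peptides, the TAP transporter carries them into the endoplasmic reticulum, and tapasin holds TAP and the empty class I molecule together while a peptide is loaded. The stable complex of heavy chain, beta-2 microglobulin and peptide then moves to the cell surface. Nearly all nucleated cells express class I molecules, and interferons raise the whole pathway.

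Cells entered the comparison if they had 100000 or more endogenous gene reads and the mast cell protease gene Cpa3 at 1000 CPM or more, where CPM is a gene's reads scaled to a common total of endogenous reads per cell. This rule kept 94 mature mast cells and 91 BMCPs. BMCP numbers 6 and 93 had too few reads (3978 and 36972), and BMCP numbers 46 and 80 had Cpa3 at 113 and 160 CPM. The kept cells nearest to the Cpa3 threshold were BMCP numbers 40 (3729 CPM) and 55 (11033 CPM). Endogenous reads per kept cell ran from 561600 to 2152221 among mature mast cells and from 344022 to 2091665 among BMCPs, with medians of 1255270 and 1247890. Endogenous reads per read of the ERCC spike-in RNA had medians of 939 and 567. Kit, which encodes the c-Kit receptor of the gates, had pooled levels of 980 and 1172 CPM, and Fcer1a, the IgE receptor alpha chain, 3844 and 3182 CPM. Adgre1, Csf1r, C1qb, Itgax, Cd3e, Cd3d, Cd3g, Ncr1, Klrb1c, Eomes, Prg2, S100a8 and Hba-a1, 13 markers of other blood cells, had no read in any kept cell. Other markers were read from a few cells, such as Lck of T cells at 10 CPM or more in 0 mature mast cells and 1 BMCP, and Ccr3 of eosinophils in 0 and 2. The B cell genes Ighm and Cd79b were read more widely, with 10 CPM or more of Ighm in 46 of 94 mature mast cells and 23 of 91 BMCPs (pooled 228 and 156 CPM) and of Cd79b in 8 and 3 (26.6 and 10.99 CPM). Apart from Ighm, Cd79b and markers of the related basophils, a marker of another cell type reached 50 CPM in 3 mature mast cells and 9 BMCPs. The part of these reads in the levels below was not tested beyond leaving out those 3 and 9 cells, without which the log2 ratio of the summed chains was 0.64.

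In the pooled reads, the genes for the class I molecule itself were higher in mature mast cells, and those for the peptide transporter and the immunoproteasome were higher in BMCPs. The summed level of B2m, H2-K1 and H2-D1 was 19302 CPM in the mature gate against 12205 CPM in the BMCP gate, with a log2 ratio of 0.66 (95% Poisson interval 0.66 to 0.67). The summed level of Tap1, Tap2, Psmb8 and Psmb9 was 430 and 665 CPM, a log2 ratio of -0.63 (-0.65 to -0.60). Scaled to ERCC spike-in reads, Tap2, Psmb8 and Psmb9 turned to 0.23, 0.36 and 0.43, higher in mature mast cells, and Psmb9 also turned in the first 95 columns of the table (0.11). Here and below a log2 ratio is mature over BMCP with 1 CPM added to each pooled level. Across the 10478 genes that reached 5 CPM in either group, the median log2 ratio was -0.24 and 36.9% of genes were above 0. Of the 9 members, 8 reached 5 CPM, and Nlrc5 did not. Past a factor of 2 stood 1 of the 8, Tap1, which was higher in BMCPs. Of all genes, 28% were past this factor, 9.83% with the higher level in mature mast cells and 18.2% in BMCPs. Past a factor of 1.5 stood 4 of the 8, with B2m and H2-K1 higher in mature mast cells and Tap1 and Tap2 in BMCPs, against 49% of all genes.

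**Figure D1:**
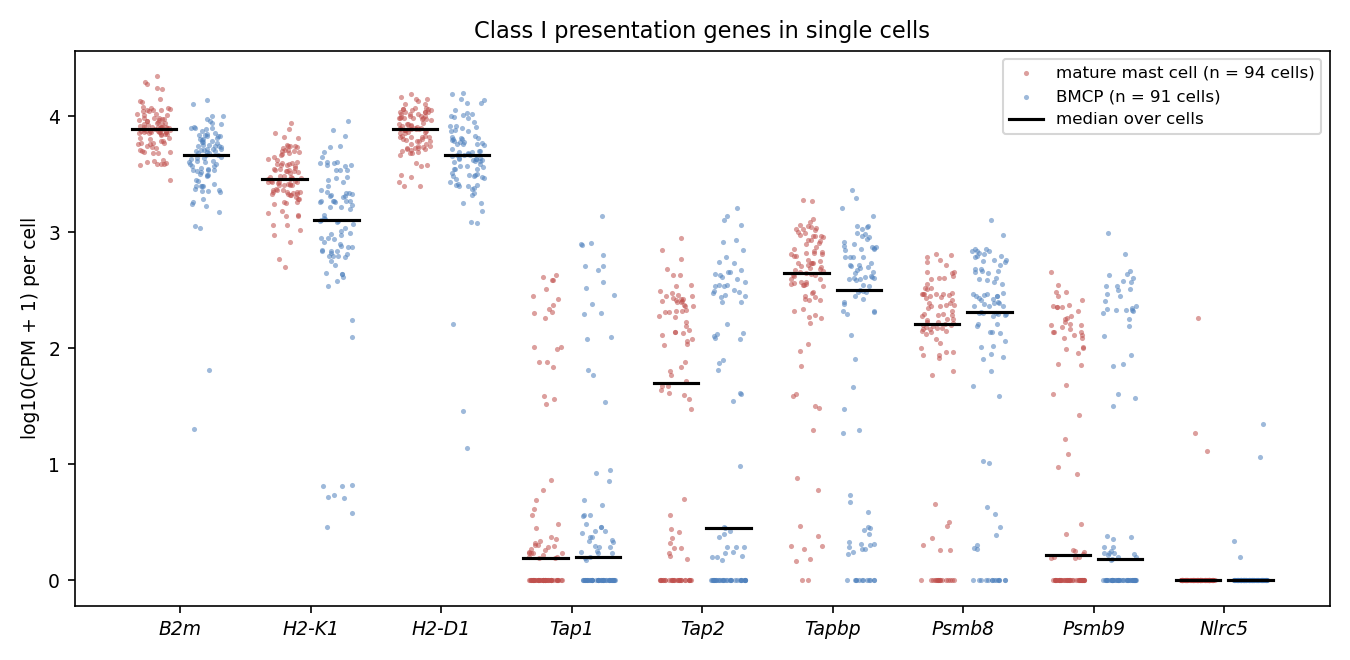
Level of each of the 9 genes in every kept cell, as log10(CPM + 1), with 94 mature mast cells (red) and 91 BMCPs (blue). Points are cells and black bars are medians over cells. B2m and H2-D1 lie far above 0 in nearly every cell, H2-K1 is near 0 in 8 BMCPs, and Tap1, Tap2, Tapbp, Psmb8 and Psmb9 are split between cells near 0 and cells above 10 CPM.

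B2m encodes beta-2 microglobulin, the light chain shared by all class I molecules. It ranged from 2842 CPM through a median of 7795 to 22350 in mature mast cells, and from 19.1 through 4699 to 13868 in BMCPs. The ranges overlapped, with BMCPs extending lower. Its pooled levels were 8223 and 4911 CPM, a log2 ratio of 0.74 (0.74 to 0.75).

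H2-D1 and H2-K1 encode the classical class I heavy chains of this strain, which hold the peptide. H2-D1 ranged from 2516 CPM through 7825 to 15587 in mature mast cells, and from 12.7 through 4629 to 15964 in BMCPs. The highest cells of both groups were at a like level, and the lowest were BMCPs. The pooled levels of H2-D1 were 7893 and 5491 CPM, a log2 ratio of 0.52 (0.52 to 0.53). H2-K1 ranged from 500.2 CPM through 2882 to 8848 in mature mast cells, and from 1.89 through 1281 to 9218 in BMCPs. Its pooled levels were 3186 and 1802 CPM, a log2 ratio of 0.82 (0.81 to 0.83).

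The 3 chains together took a median of 1.90% of a mature mast cell's endogenous reads and 1.04% of a BMCP's. The summed level ran from 8272 CPM through 18993 to 38469 in mature mast cells, and from 36.1 through 10366 to 38743 in BMCPs. Of 91 BMCPs, 26 lay below the lowest mature mast cell and 14 above the median mature mast cell. In the other direction, 4 of 94 mature mast cells lay below the median BMCP. The spread between cells was also wider in BMCPs, where the coefficient of variation of the summed level was 55.1% against 29.8%.

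B2m and H2-D1 reached 10 CPM in every kept cell of both groups, as did only 21 genes (0.200% of those tested). H2-K1 did so in 94 of 94 mature mast cells and 83 of 91 BMCPs (91.2%, exact Clopper-Pearson 95% interval 83.4 to 96.1%). The other 8 BMCPs held 2 to 9 H2-K1 reads each, at 1.89 to 5.70 CPM, and the next BMCP stood at 124 CPM. In 6 of these 8 cells H2-D1 was at 2557 to 9818 CPM and B2m at 2347 to 7996 CPM, so H2-K1 alone was near absent from the reads. The remaining 2 were BMCP numbers 40 and 55, in which all 3 chains were low.

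BMCP numbers 40 and 55 stood apart from every other kept cell. Their summed chains were 95.0 and 36.1 CPM, and the next lowest cell, BMCP number 52, had 3949 CPM. In BMCP number 55, B2m was at 19.1, H2-K1 at 4.25 and H2-D1 at 12.7 CPM, and in BMCP number 40 they were at 64.2, 2.79 and 27.9 CPM. These cells had 24.7 and 97.4 endogenous reads per ERCC read, far below the BMCP median of 567, and BMCP number 55 held 14.4% of all ERCC reads of the kept BMCPs. Without both cells the log2 ratio of the summed chains was 0.64.

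The promoters of the 3 chain genes are printed here because the 3 genes share the direction of their difference, and that of Tap1 because it differs from them in direction. Tapbp shares the direction of the chains, and Psmb8 and Psmb9 that of Tap1, and their promoters are not printed. A link between promoter letters and the levels was not tested. Each printed promoter is the 250 bases before a RefSeq transcription start on GRCm38.p6, 5′ to 3′ on the gene's strand. Capitals mark matches on either strand to a CCAAT box (CCAAT, read on the other strand as ATTGG), a CRE core (TGACG), an interferon regulatory factor element (GAAANNGAA or GAANNGAAA) or an NF-kB element (GGGNNTTCC). No marked matches overlap.
B2m, chr2:122147437-122147686, plus strand: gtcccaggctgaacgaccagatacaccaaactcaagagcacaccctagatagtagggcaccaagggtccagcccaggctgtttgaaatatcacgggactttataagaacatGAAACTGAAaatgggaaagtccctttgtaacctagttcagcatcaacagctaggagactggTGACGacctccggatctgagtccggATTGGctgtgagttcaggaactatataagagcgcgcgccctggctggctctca
H2-K1, chr17:34000348-34000597, minus strand: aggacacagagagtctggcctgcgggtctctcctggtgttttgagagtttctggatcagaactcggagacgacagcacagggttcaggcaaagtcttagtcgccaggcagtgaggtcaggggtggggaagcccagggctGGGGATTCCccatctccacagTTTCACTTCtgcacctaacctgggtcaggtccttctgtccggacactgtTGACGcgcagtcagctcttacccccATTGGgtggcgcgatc
H2-D1, chr17:35262844-35263093, plus strand: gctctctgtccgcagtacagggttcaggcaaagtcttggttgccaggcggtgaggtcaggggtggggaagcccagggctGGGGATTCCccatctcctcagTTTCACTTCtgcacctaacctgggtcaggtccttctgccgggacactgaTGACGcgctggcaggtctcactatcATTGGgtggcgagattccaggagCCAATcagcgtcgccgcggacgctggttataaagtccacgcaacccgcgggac
Tap1, chr17:34187306-34187555, plus strand: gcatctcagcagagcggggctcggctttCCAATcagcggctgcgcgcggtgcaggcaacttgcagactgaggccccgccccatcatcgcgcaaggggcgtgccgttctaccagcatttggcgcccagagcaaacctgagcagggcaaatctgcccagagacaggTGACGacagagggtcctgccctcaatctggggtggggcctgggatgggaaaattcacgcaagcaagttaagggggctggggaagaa

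In all 3 chain promoters a TGACG stood 25 bases upstream of an ATTGG, counted from first base to first base. The ATTGG began 53 bases before the start in B2m, 16 in H2-K1 and 76 in H2-D1. This spacing occurred in 30 of 32851 RefSeq promoters (0.0913%), from 26 genes that include the class I-like gene H2-M3, and the same order of motifs at any spacing in 2.20%. H2-K1 and H2-D1 also shared a GGGNNTTCC and a GAANNGAAA match, and B2m held a GAAANNGAA match. Of all promoters 33.8% held CCAAT, 17.8% TGACG, 7.13% GAAANNGAA, 6.31% GAANNGAAA and 4.98% GGGNNTTCC. The Tap1 window overlaps the RefSeq promoter of Psmb9, which is read from the opposite strand, and the pair shares a CCAAT and a TGACG match outside the 25-base spacing. The promoter of Tapbp held 2 CCAAT matches, and that of Psmb8 held no match to these letters. Promoters of 7 of the 9 members were matched, all but those of Tap2 and Nlrc5. The spacing and the GAANNGAAA letters were chosen after the sequences were seen. A match is a description of the letters and not a binding site.

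The genes that supply peptides were read from fewer cells. Tap1 encodes a subunit of the peptide transporter and ranged from 0 through a median of 0.56 to 426 CPM in mature mast cells, and from 0 through 0.59 to 1389 in BMCPs. Medians were at a level of about 1 read in both groups, so the pooled levels of 38.3 and 89.5 CPM (log2 ratio -1.20, -1.27 to -1.14) rest on few cells. Cells with Tap1 at 10 CPM or more numbered 21 of the 94 mature mast cells (22.3%, 14.4 to 32.1%) and 19 of the 91 BMCPs (20.9%, 13.1 to 30.7%). BMCP number 78 alone held 24.8% of the BMCP reads of Tap1. Without the highest cell of each group the pooled levels were 33.9 and 68.4 CPM, a log2 ratio of -0.99, and Tap1 was no longer past the factor of 2.

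Tap2, the other transporter subunit, ranged from 0 through 49.1 to 894 CPM in mature mast cells, and from 0 through 1.85 to 1635 in BMCPs. Its median was higher in mature mast cells while its pooled level was higher in BMCPs (134 and 211 CPM, log2 ratio -0.65, -0.69 to -0.61). Tap2 was at 10 CPM or more in 54 of the 94 mature mast cells (57.4%, 46.8 to 67.6%) and 43 of 91 BMCPs (47.3%, 36.7 to 58%). Tap2 was thus read from a smaller share of BMCPs, and its upper quartile there was higher (316 against 226 CPM).

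Psmb8 and Psmb9 encode catalytic subunits that replace their constitutive counterparts in the immunoproteasome. Psmb8 ranged from 0 through 162 to 647 CPM in mature mast cells, and from 0 through 205 to 1289 in BMCPs, with pooled levels of 191 and 274 CPM (log2 ratio -0.52, -0.55 to -0.48). Psmb8 was at 10 CPM or more in 70 of the 94 mature mast cells and 68 of 91 BMCPs, shares of 74.5% and 74.7%. Psmb9 ranged from 0 through 0.64 to 459 CPM in mature mast cells and from 0 through 0.54 to 990.3 in BMCPs, with pooled levels of 66.5 and 90.6 CPM (log2 ratio -0.44, -0.50 to -0.38). Psmb9 was at that level in 39 of the 94 mature mast cells (41.5%, 31.4 to 52.1%) and 32 of 91 BMCPs (35.2%, 25.4 to 45.9%). For both genes the groups overlapped and the highest cells were BMCPs.

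Tapbp encodes tapasin and ranged from 0 through 450 to 1904 CPM in mature mast cells, and from 0 through 321 to 2346 in BMCPs. Its pooled levels were 505 and 417 CPM, a log2 ratio of 0.27 (0.25 to 0.30). Tapbp was at 10 CPM or more in 83 of the 94 mature mast cells (88.3%, 80.03 to 94.01%) and 63 of 91 BMCPs (69.2%, 58.7 to 78.5%). The intervals of these shares lie apart, but the share of all tested genes with intervals apart is not given here. These intervals cover the counting of cells and not the difference between mice. After each cell was thinned to 100000 reads, 82 mature mast cells (87.2%) and 67 BMCPs (73.6%) had a Tapbp read, and the intervals of these shares (78.8 to 93.2% and 63.3 to 82.3%) overlapped. For a gene of the tested set the median share of cells at 10 CPM was 18.1% in mature mast cells and 14.3% in BMCPs.

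Nlrc5 encodes the class I transactivator, a coactivator that acts on class I gene promoters. The mature gate gave 307 Nlrc5 reads and the BMCP gate 39, and 280 of the 307 came from mature mast cell number 60 and 22 of the 39 from BMCP number 66. At least 1 read was present in 3 of 94 and 4 of 91 cells, so the transactivator was not detectable at this depth in nearly all cells in which the chain genes were read.

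Per length of exon sequence, the 8 members that reached 5 CPM spanned 3 orders of magnitude. On a scale of reads per exon length and total reads (RPKM), pooled levels in mature mast cells were 9561 for B2m, 3061 for H2-D1, 1084 for H2-K1, 139 for Tapbp, 56.5 for Psmb8, 35.5 for Tap2, 18.2 for Psmb9 and 6.99 for Tap1. B2m ranked 5 of 10449 genes, H2-D1 8 and H2-K1 26, while Tap1 ranked 4933. In BMCPs the order of the 8 members was the same, with B2m at rank 4, H2-D1 at 18, H2-K1 at 53 and Tap1 at 3185. Over mature mast cells the quartiles of RPKM were 7154 to 11302 for B2m, 2290 to 3939 for H2-D1 and 737 to 1349 for H2-K1, which do not overlap. The quartiles of Tapbp (58.2 to 205) overlapped those of Psmb8 (5.11 to 84.8), and those of Psmb8, Tap2, Psmb9 and Tap1 overlapped their neighbours.

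The ratio of B2m to H2-D1 within a cell had a median near 1, while single cells lay to either side. This median was 0.999 in mature mast cells and 0.961 in BMCPs, in CPM not adjusted for length. The quartiles of the log2 ratio were -0.38 to 0.49 in mature mast cells and -0.57 to 0.40 in BMCPs. H2-D1 exceeded H2-K1 in 94 of 94 mature mast cells and 85 of 91 BMCPs, with median ratios of 2.58 and 3.43.

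The scaling moved these differences. Scaled to ERCC reads in place of total reads, the median over all genes shifted from -0.24 to 0.65 on the log2 scale, and to 0.44 without BMCP number 55. The chains stayed above that median at 1.62 for B2m, 1.70 for H2-K1 and 1.40 for H2-D1. Tap2, Psmb8 and Psmb9, though above 0, were below the median gene, and Tap1 was at -0.34, no longer past the factor of 2. With TMM scaling Tap1 was at -0.97 and H2-K1 at 1.06, so the 1 member past the factor of 2 was then H2-K1, higher in mature mast cells. Endogenous reads per ERCC read differed between the groups, and the part of RNA content or capture in this was not tested. Between the first 95 columns of the table and the other 94, which the labels do not tie to the 2 sorting plates, the log2 ratio of the summed chains was 0.81 and 0.53. For Tap1 it was -0.48 and -2.16, and for Psmb9 0.11 and -0.90, so Psmb9 differed in direction between them.

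**Figure D2:**
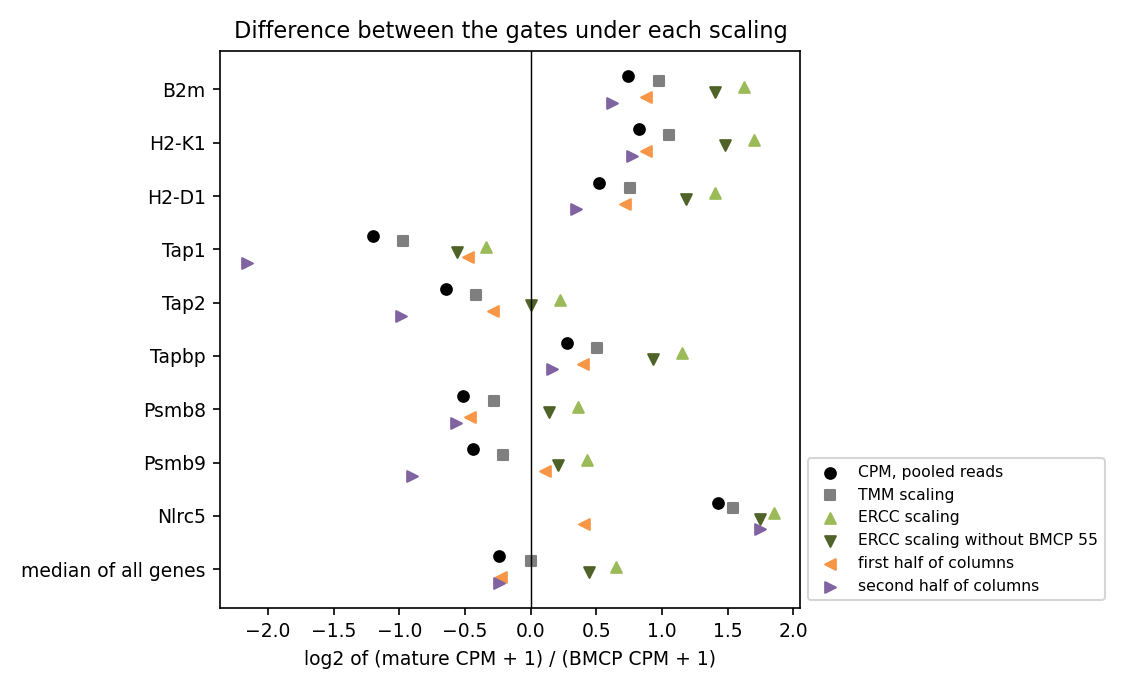
Log2 ratio, mature over BMCP with 1 CPM added, for each gene and for the median of all genes under 6 scalings or sets of cells, shown by symbol. B2m, H2-K1, H2-D1 and Tapbp are above 0 throughout, Tap1 is below 0 throughout, and Tap2, Psmb8 and Psmb9 cross 0 under ERCC scaling.

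The BMCPs fell into separate groups by Gzmb, the gene for the cytotoxic protease granzyme B, and the class I chains followed that division. Gzmb was at 543 CPM or more in 60 BMCPs and at 27.9 CPM or less in 31, with 0 of 91 between 50 and 200 CPM, and in mature mast cells it was at most 15.9 CPM. The summed chains ranged from 36.1 CPM through a median of 8737 to 15201 in the 60 Gzmb-high BMCPs, and from 95.0 through 17928 to 38743 in the 31 Gzmb-low BMCPs. The Gzmb-low BMCPs lay over the range of the mature mast cells, and the Gzmb-high BMCPs lay mostly below the Gzmb-low ones. Without BMCP numbers 40 and 55 the medians were 8776 and 18128 CPM and the lowest Gzmb-low cell was at 10366 CPM. The division was chosen after the values were seen and is given as a description of these cells. The ratios of all genes between these sets are not given here. Whether the chains or the peptide supply genes differ between the sets more than most genes was not tested.

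**Figure D3:**
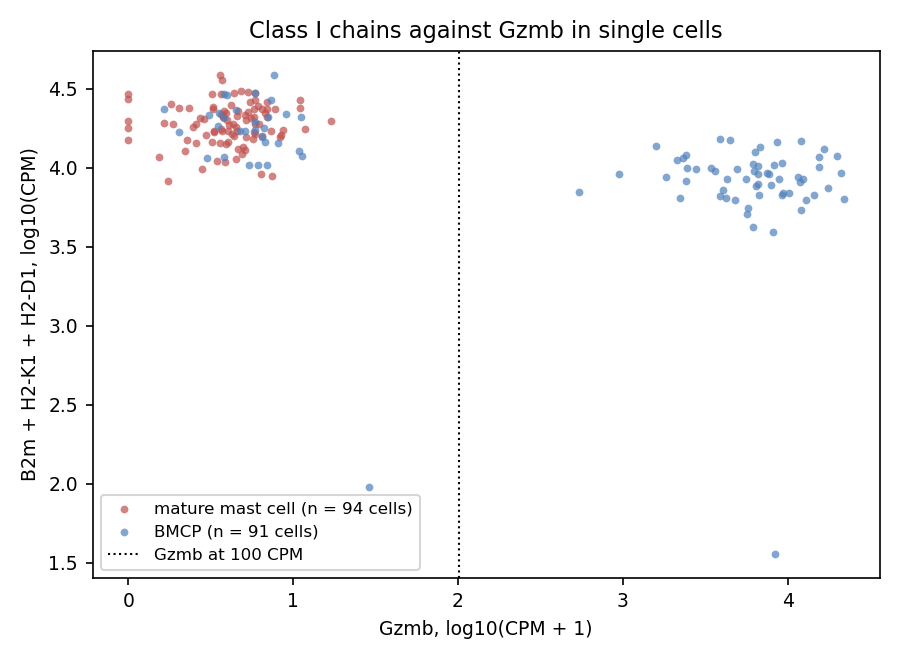
Summed CPM of B2m, H2-K1 and H2-D1 against Gzmb in each of 94 mature mast cells and 91 BMCPs, on log10 scales with 1 CPM added to Gzmb. The dotted line marks 100 CPM of Gzmb. The 31 BMCPs left of the line overlie the mature mast cells except for BMCP number 40, and the 60 to the right are mostly lower.

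Each chain showed this division. The median of B2m was 3734 CPM in Gzmb-high and 6908 in Gzmb-low BMCPs, that of H2-K1 810.2 and 2738 CPM, and that of H2-D1 3963 and 7984 CPM. Against pooled mature mast cells, the Gzmb-low BMCPs gave log2 ratios of 0.23 for B2m, 0.11 for H2-K1 and -0.08 for H2-D1. The Gzmb-high BMCPs gave 1.11, 1.41 and 0.99. Of the 8 BMCPs with H2-K1 under 10 CPM, 7 were Gzmb-high, BMCP number 55 among them, and the other was BMCP number 40. Of all 91 BMCPs, 60 were Gzmb-high. H2-K1 reached 10 CPM in 88.3% of Gzmb-high (77.4 to 95.2%) and 96.8% of Gzmb-low BMCPs (83.3 to 99.9%), and these intervals overlapped.

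The peptide supply genes ran the other way in pooled reads. Psmb8 was at 318 CPM in Gzmb-high and 190 CPM in Gzmb-low BMCPs, and mature mast cells were at 191 CPM. Psmb9 was at 112, 49.6 and 66.5 CPM, Tap2 at 266, 109 and 134 CPM, and Tap1 at 109, 51.7 and 38.3 CPM, in the same order. Without the highest cell of each set, Tap1 was at 77.4, 35.3 and 33.9 CPM. Tapbp was at 382, 485 and 505 CPM. Its order by Gzmb differed between the sets of table columns. In the first 95 columns Tapbp was at 428 CPM in Gzmb-high and 298 CPM in Gzmb-low BMCPs. In the other columns it was at 326 and 597 CPM. Cells at 10 CPM or more were 46 of 60 Gzmb-high and 22 of 31 Gzmb-low BMCPs for Psmb8 (76.7% and 70.97%), 31 and 12 for Tap2 (51.7% and 38.7%) and 23 and 9 for Psmb9 (38.3% and 29.03%). For Tap1 they were 11 and 8 (18.3% and 25.8%), the other order. The Clopper-Pearson intervals of the 2 sets overlapped for all 4 genes, with 38.4 to 64.8% and 21.9 to 57.8% for Tap2.

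Other measures moved with Gzmb among the BMCPs. The share of reads on 10 mast cell granule genes had a median of 13.3% in Gzmb-high and 27.99% in Gzmb-low BMCPs, against 28.2% in mature mast cells. Mcpt4, a mast cell protease gene among these 10, had medians of 26.5, 14294 and 25503 CPM in the same order. Levels given for the BMCP gate pool both sets. Endogenous reads per ERCC read had medians of 497 and 770, while total reads were alike at 1273120 and 1233200. The part of these measures in the levels of the chains was not tested. The summed chains were also divided within each set of table columns, with medians of 9256 and 17275 CPM in the first 95 columns (33 and 13 cells) and 7775 and 18918 CPM in the other 94 (27 and 18 cells). Within the Gzmb-high BMCPs the Spearman correlation of the summed chains with Gzmb was -0.09 over 60 cells, and within the Gzmb-low BMCPs -0.22 over 31 cells. With granule and Gzmb reads left out of the totals they were -0.20 and -0.14.

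Over cells of a set, the chain genes varied together in some sets and not in others. H2-K1 and H2-D1 had a Spearman correlation of 0.59 over 94 mature mast cells, 0.61 over the 31 Gzmb-low BMCPs and -0.01 over the 60 Gzmb-high BMCPs. B2m and H2-D1 had 0.26, 0.60 and 0.13, and B2m and H2-K1 0.11, 0.46 and 0.00. All genes of a cell share its library and total, so these are descriptions. The other 25 pairs of members, without Nlrc5, ranged from -0.15 to 0.16 in mature mast cells, from -0.11 to 0.28 in Gzmb-high and from -0.25 to 0.35 in Gzmb-low BMCPs. Tap1 and Psmb9, which are transcribed in opposite directions from neighbouring starts, had 0.12 in mature mast cells and reached 10 CPM together in 11 cells, with Tap1 alone in 10 and Psmb9 alone in 28. In BMCPs they did so in 7 cells, with Tap1 alone in 12 and Psmb9 alone in 25. All 4 of Tap1, Tap2, Psmb8 and Psmb9 reached 10 CPM in 6 of 94 mature mast cells and 3 of 91 BMCPs, and none of the 4 did in 7 and 8 cells.

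**Figure D4:**
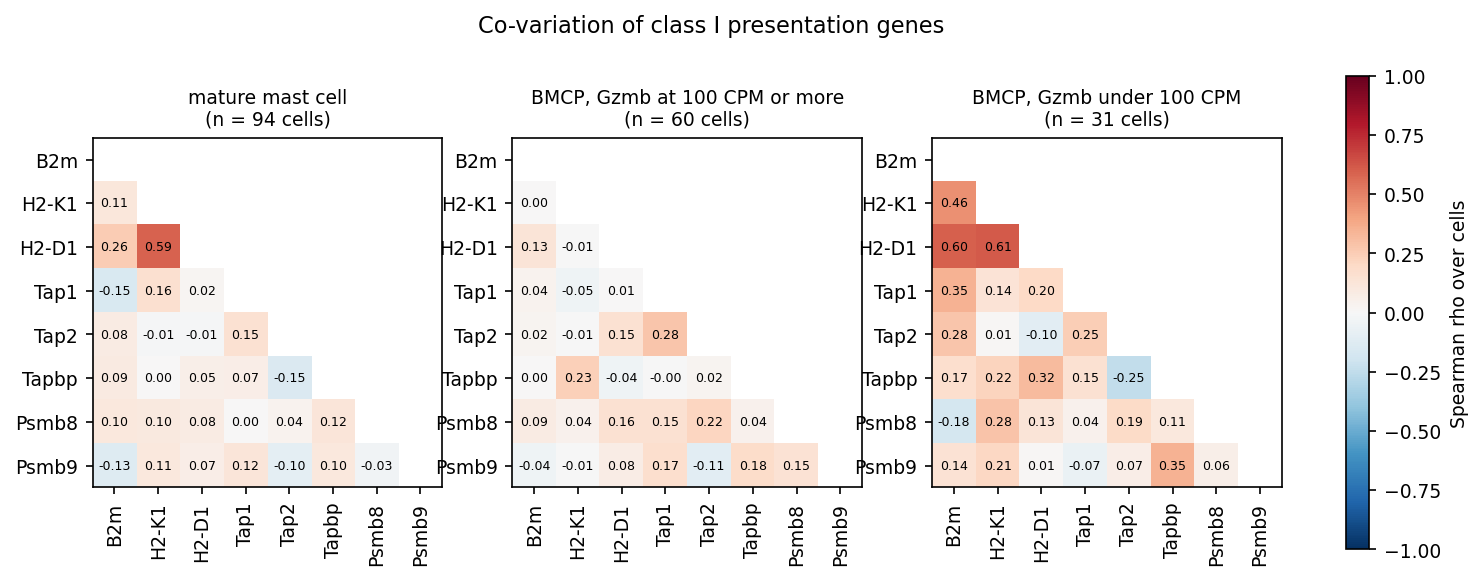
Spearman correlation over cells between the 8 members read in many cells, in mature mast cells, in BMCPs with Gzmb at 100 CPM or more and in BMCPs with Gzmb under 100 CPM. Colour and printed value give the coefficient, with H2-K1 and H2-D1 at 0.59 in mature mast cells, all 3 pairs of B2m, H2-K1 and H2-D1 at 0.46 or more in the Gzmb-low BMCPs, and the same pairs at 0.13 or less in the Gzmb-high BMCPs.

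Among 2161 genes with a read in at least 50% of the cells of each group, the non-members most like the summed chains were mostly other class I heavy chain genes. Likeness was the lower of the Spearman correlations over 94 mature mast cells and 91 BMCPs, and these were 0.50 and 0.69 for H2-Q7, 0.34 and 0.56 for H2-Q6, 0.31 and 0.60 for Ecm1, 0.30 and 0.55 for H2-Q5 and 0.28 and 0.48 for H2-Q4. Ecm1 encodes a secreted matrix protein. Medians over the compared genes were 0.00 and 0.03. Within the Gzmb-high and Gzmb-low BMCPs the values were 0.47 and 0.55 for H2-Q7 and 0.33 and 0.65 for H2-Q5, 0.28 and 0.41 for H2-Q6, 0.10 and 0.28 for H2-Q4 and 0.03 and 0.27 for Ecm1. The class I genes resemble each other in sequence. Of all 50-base windows of the H2-Q7 transcripts, 26.4% occur in another gene and 4.53% in H2-K1 or H2-D1, and for H2-Q6 the values are 32.0% and 5.45%. For H2-Q5 they are 36.45% and 7.13%, and for H2-Q4 21.8% and 4.66%. For H2-K1 9.63% and for H2-D1 12.8% of windows are shared, and for B2m none. How reads of shared windows were assigned is not given in the sources used here, so the levels of the heavy chain genes are uncertain to that degree.

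Of 18 other class I chain genes, 11 reached 5 CPM, with a median log2 ratio of 0.69 against -0.24 over all genes. Past a factor of 2, 5 were higher in mature mast cells, and 1, H2-K2, in BMCPs (44.6 and 92.1 CPM), against 9.83% and 18.2% of all genes. H2-Q6 was at 227 and 65.8 CPM, H2-Q7 at 140 and 59.6, H2-T24 at 57.05 and 17.8, H2-Q4 at 11.1 and 5.01 and H2-T10 at 5.99 and 0.592 CPM, the mature level given first here and below. In the other 94 columns alone H2-Q4 and H2-Q7 were at log2 ratios of 0.48 and 0.84, within the factor. The most abundant, H2-T23, encodes the Qa-1 molecule that presents a signal peptide of other class I chains, and was at 314 and 284 CPM (log2 ratio 0.14). H2-K2 was within the factor of 2 at -0.16 under ERCC scaling, -0.80 with TMM and -0.92 in the other 94 columns. Without BMCP numbers 40 and 55 it was at -0.86, and H2-Q4 was at 0.99, both within the factor. Of the 712 reads of H2-T10 in mature mast cells, 315 came from mature mast cell number 50.

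In the main comparison none of the 6 genes for chaperones of peptide loading and for peptide trimming passed the factor of 2. Their median log2 ratio was 0.34. Pdia3, the thiol oxidoreductase of the loading complex, was at 559 and 488 CPM, and Calr, the chaperone calreticulin, at 512 and 333 CPM (log2 ratio 0.62). Hspa5, the chaperone BiP, was at 280.2 and 216 CPM.

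The remaining proteasome genes were also within a factor of 2 in the main comparison. The 3 other inducible subunits had a median log2 ratio of 0.09, with Psme1, a subunit of the PA28 activator, at 147 and 255 CPM, Psmb10 at 98.1 and 92.3 and Psme2 at 36.5 and 32.9 CPM. The 3 constitutive subunits that Psmb8, Psmb9 and Psmb10 replace had a median of 0.07, with Psmb6 at 195 and 226 CPM, Psmb7 at 66.6 and 59.2 and Psmb5 at 47.05 and 44.9. The 11 core subunits present in both forms had a median of -0.16, near that of all genes. Psma7 was at 268 and 299 CPM, Psmb2 at 252 and 279 and Psma1 at 192 and 305. In the first 95 columns Psmb7 was at a log2 ratio of 1.04, past the factor, and Psmb5 at 0.90. Both turned in the other columns, to -0.30 and -0.63. Under ERCC scaling Psmb7 (1.03) and Psme2 (1.00) were past the factor, and the median of all genes was 0.65.

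Genes for factors of the class I promoter were mostly higher in BMCPs, with 9 of 10 below 0 and a median log2 ratio of -0.81. Most genes lay that way too, as 36.9% of all genes were above 0 and their median was -0.24. Under ERCC scaling this median was 0.05, with Rela at 0.23 and Nfkb1 at 0.02, so the direction of the list depends on the scaling. The value of 0.05 lies below the median of all genes there, 0.65. Past the factor of 2 stood 4 of the 10, all higher in BMCPs, as were 18.2% of all genes. These were Nfya of the CCAAT-binding factor (4.16 and 12.7 CPM), Creb1 (19.8 and 47.5) and Atf1 (14.1 and 33.7), which bind CRE sites, and Rfx5 of the RFX complex (7.67 and 16.99). Under ERCC scaling none of these 4 passed the factor, and in the first 95 columns alone Rfx5 was at 1.04, higher in mature mast cells, and Creb1 at -0.80. Atf1 was at -0.89 in the other columns. The most abundant were Nfkb1 (143 and 261 CPM) and Rela (107 and 169 CPM), which encode NF-kB subunits, and Nfyb (30.9 and 53.3 CPM).

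For the 13 interferon receptor and signalling genes the median log2 ratio was 0.39. Irf9, the DNA-binding subunit of the factor that type I interferon activates, was past the factor of 2 with 158 and 73.9 CPM, and Irf2, an antagonist of Irf1, with 30.7 and 73.2. The receptor chains Ifnar2 (314 and 240.3 CPM) and Ifngr1 (310 and 194 CPM) were the most abundant, followed by the kinase gene Jak1 (174 and 191 CPM). Under ERCC scaling Irf2 was at -0.37, and in the first 95 columns alone Irf2 was at -0.53 and Irf9 at 0.87, all within the factor.

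Genes induced by interferon did not share a direction. Of 20, 15 reached 5 CPM, with a median log2 ratio of -0.21. Ifit1, Ifit2 and Iigp1 had no read among 118831096 endogenous reads of mature mast cells and 116630281 of BMCPs, which does not show that their RNA was absent. Past the factor of 2, Bst2, which encodes the surface restriction factor tetherin, was higher in mature mast cells (300 and 124 CPM), as was the GTPase gene Igtp (61.3 and 30.1). Zbp1, a nucleic acid sensor, was higher in BMCPs (0.0168 and 12.4 CPM), as were Ifitm3 (1.58 and 11.7) and Oas1a (4.04 and 10.02). Oas1a turned to 0.22 in the other 94 columns, and in the first 95 Ifitm3 was at -0.50 and Igtp at 0.79. Ly6e was the most abundant of the list at 2213 and 3100 CPM, and under ERCC scaling its log2 ratio turned from -0.49 to 0.39. Usp18, which removes ISG15 from proteins, was at 127 and 148 CPM.

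MHC class II genes present peptides from outside the cell, and only 4 of 10 reached 5 CPM. Of these, 3 were past the factor of 2 and higher in BMCPs, as were 18.2% of all genes. H2-Ab1 was at 13.3 and 63.9 CPM, with 7439 CPM in BMCP number 55, and without BMCP numbers 40 and 55 its log2 ratio turned from -2.18 to 1.54. H2-DMa (0.118 and 38.9 CPM) was at 10 CPM or more in 0 of 94 mature mast cells and 6 of 91 BMCPs, and H2-Oa (0.0168 and 25.6 CPM) in 0 and 9, and H2-DMb1 was at 25.9 and 42.4 CPM. Ciita, the class II transactivator, gave 2 and 3 reads.

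**Figure D5:**
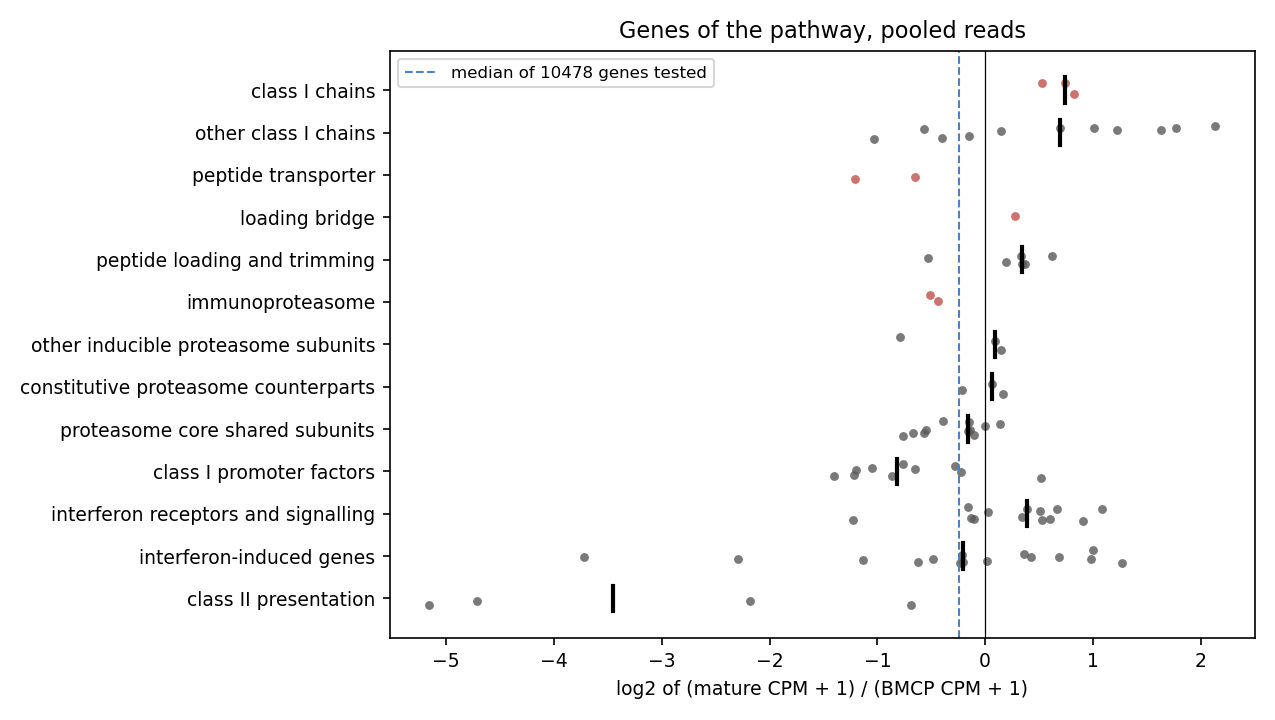
Log2 ratio, mature over BMCP with 1 CPM added, of every gene that reached 5 CPM, by list, with the described genes in red and other genes of the pathway in grey. Black bars are list medians for lists of 3 or more genes, and the dashed line is the median of all 10478 genes at -0.24. Class I chains lie to the right of that line and promoter factors mostly to its left.

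The members lie on 3 chromosomes of GRCm38. H2-K1 (chromosome 17, 33996017 to 34000347, minus strand), Tapbp (33915899 to 33929292), Psmb9 (34181987 to 34187764, minus strand), Tap1 (34187553 to 34197225), Psmb8 (34197721 to 34201454), Tap2 (34203527 to 34216321) and H2-D1 (35262730 to 35267499) are in the MHC region. B2m is on chromosome 2 (122147686 to 122153083) and Nlrc5 on chromosome 8 (94434356 to 94527272). Tap1 and Psmb9 share 212 exonic bases on opposite strands. Antisense transcripts cover 24.9% of the exonic bases of Tapbp (Gm19412), 14.7% of Psmb8 (Gm20496) and 14.1% of Tap2 (Gm15821). Whether counting used the strand is not given in the sources used here, so reads in these stretches cannot be assigned with certainty.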

How the data were processed

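Per the labels' protocols, RNA of single index-sorted cells in 2 plates was reverse transcribed from oligo-dT and amplified with ERCC spike-ins and without molecular identifiers, so reads are not independent molecules. Per the submitters' processing notes, the authors used GSNAP 2015-09-29, HTSeq 0.5.3p3 and mm10. The deposited values were raw read counts per gene and cell. In kept cells 14.5% of table reads had no feature, 3.11% were ambiguous and 14.0% were not aligned. CPM was computed over endogenous genes (98.0% with a symbol), without the 92 ERCC and 5 summary rows. Pooled CPM is the sum of reads of a group over the sum of its totals. Exon lengths came from GENCODE M21 (GRCm38), and promoters from RefSeq.

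Named genes were all members, the genes past a factor of 2 and the 3 most abundant of each related list, and the 5 non-members most like the summed chains; Ciita and genes with no read were named after their values were seen. Members and lists were chosen with earlier results of these data known. Alternatives were ERCC and TMM (edgeR 4.0.16) scaling, other totals, filters and summaries, thinning and sets of cells. The ratio script was tested on simulated data. Doublets were not called.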

Additional observations from a re-analysis of the deposited data

Results flagged for a closer look

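BMCP numbers 46 and 80, left out of all comparisons for their low Cpa3, carried a strong signal of MHC class II and B cell genes. Cd74, the class II invariant chain, stood at 49765 CPM in BMCP number 46 and at 43636 CPM in BMCP number 80, against pooled levels of 2.41 CPM in kept mature mast cells and 4.42 CPM in kept BMCPs. The B cell gene Cd79a stood at 4795 and 6527 CPM. Their class I chains were within the range of the kept BMCPs, with B2m at 6645 and 5165 CPM, H2-K1 at 1528 and 1707 CPM and H2-D1 at 8226 and 4027 CPM. Psmb8 was at 1406 and 640.3 CPM, and Nlrc5 had no read in either cell.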

How the results depend on the processing

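The summed chains were higher in mature mast cells under every alternative run, none of which split the BMCPs by Gzmb. Pooled, they were at 8986 CPM in Gzmb-high and 18300 CPM in Gzmb-low BMCPs, against 19302 CPM in mature mast cells. Between the gates the log2 ratio of the summed chains, 0.66, was 1.54 with ERCC scaling (1.32 without BMCP number 55) and 0.90 with TMM. It was 0.86 with totals without granule genes, 0.69 as a mean and 0.87 as a median over cells. It was 0.65 with all cells, 0.67 at 500000 reads or more, 0.69 after thinning, 0.67 without the highest cell of each group, 0.64 without cells holding another type's marker and 0.64 without BMCP numbers 40 and 55. It was 0.81 in the first 95 columns and 0.53 in the others; these column sets, the marker filter, BMCP numbers 40 and 55 and the second ERCC scaling were chosen after seeing the data. The number of members past a factor of 2 was 1, Tap1, higher in BMCPs. With TMM it was still 1, but the gene was H2-K1, higher in mature mast cells, and Tap1 was at -0.97. It became 4 with ERCC scaling (3 without BMCP number 55), all higher in mature mast cells and without Tap1, 2 without granule genes in the totals, 2 as a median over cells, 2 with no minimum level and 4 at a factor of 1.5. It was 0 as a mean over cells, after thinning, without the highest cells and in the first 95 columns. Apart from the factor of 1.5, the share of all genes past the factor is not given for these alternatives. The median of all genes moved from -0.24 to 0.65 with ERCC scaling, so the share from the main comparison does not carry over. The count by medians over cells includes Tap2 (log2 ratio 4.14), whose BMCP median of 1.85 CPM is a level of few reads. Over the alternatives Tap1 ranged from -2.16 to -0.02; Tap2 changed sign in 3, Psmb8 in 2 and Psmb9 in 4 of 15. The cause was not tested beyond what each alternative changes.

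No paired analysis was possible because no cell is assigned to a mouse and the cell numbers name wells, not pairs. Medians over cells near 1 read (Tap1, Psmb9) carry no direction, and with 1 pooled sample a group the spread between mice is unknown.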
